A study of Mus musculus with 6 samples.

Results

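The contractile genes of smooth muscle and the targets of serum response factor (SRF) were followed in cultured mouse podocytes labelled as NCK1/2 knockout. The set is a list of 36 named actin, calponin, myosin, tropomyosin, filament-associated and LIM-domain genes with the regulators Srf and Myocd. Each was read from the probe set that carries only that gene's symbol on the array, taking the set with the highest mean over 6 arrays where there were several. By that rule 32 of the 36 genes were measured, of 30702 genes in all. Actc1 had no named probe set, and the probe sets of Actg1, Myl6 and Myh9 also name another gene, so these 4 genes have no value here. Of the 32, 10 are classed as isoforms selective for smooth muscle or for muscle in general, 1 as a striated muscle actin and 8 as non-muscle isoforms. Another 6 are genes of mixed use, in which 1 gene serves muscle and non-muscle cells. The remaining 7 are 5 LIM-domain genes and 2 regulators.

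SRF is a transcription factor that binds the CArG box, a short element with an A and T core, in the promoters of actin and of many actin-binding genes. Its cofactors of the myocardin family (MRTF-A and MRTF-B) bind monomeric actin and enter the nucleus when actin polymerizes, and myocardin itself drives the differentiated program of smooth muscle. Ternary complex factors such as Elk1 compete with them for SRF and link it to growth factor signalling. Dedicated actin, myosin and calponin isoforms are used by smooth muscle cells and, to differing degrees, by myofibroblasts and pericytes. Nearly every other cell, podocytes included, mainly uses the non-muscle isoforms in its stress fibres and cortex.

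Total RNA came from conditionally immortalized podocytes, glomerular epithelial cells, kept on type I collagen through 10 days of differentiation. An NCK1/2 knockout line, represented by 3 arrays, was compared with a wildtype line, also represented by 3 arrays. All 6 arrays thus share the immortalization, the substrate and the differentiation time. Each genotype is a single cell line, so the genotype cannot be told apart from other differences between the lines, and p-values measure the spread between arrays of a line. No sequence of the deletion and no further treatment is given in the sources used here.

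Values are log2 intensities, on which a step of 1 is a 2-fold change in signal. Levels of different genes are not set against each other, except in sums over marker lists. The array's 23 background probe sets had means up to 7.78, and a mean at or below that is called within the background range. Array medians ran from 7.08 to 7.22, and pairs of arrays correlated across genes at a Pearson r of 0.993 to 0.997 inside a line and 0.978 to 0.985 between lines. A gene is called changed where the limma adjusted p (Benjamini-Hochberg over all 30702 genes) is under 0.05. Nck1 was at 8.13, 8.17 and 8.06 in knockout arrays and 8.54, 8.74 and 8.62 in wildtype arrays (limma adjusted p = 0.00391), and Nck2, within the background range in both, differed by -0.24 without passing (limma adjusted p = 0.0941). The position of these probe sets relative to the deleted part is not known. Of 7 measured podocyte markers none was called (limma, with none at an unadjusted p under 0.05 either), and 4 of them, Nphs1, Wt1, Ptpro and Foxc2, lay in the background range of each line. The name podocyte comes from the sample labels, and of these markers only Synpo, Podxl and Cd2ap lay above the background range. In bulk RNA, fewer cells of a type and less RNA per cell cannot be told apart.

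Of the 32 measured genes, 17 rose in knockout, 1 fell and 14 did not pass. Over all genes tested, 5.05% were called higher and 6.90% lower. Among the 11391 genes with a mean above the background range, where most of the list lies, 10.1% were called higher and 13.5% lower. The median log2 fold change of the 32 genes was 0.33, against 0.01 over all genes. Of the genes that rose, 4 did so at least 2-fold, a call that 0.928% of all genes received: Acta2, Tagln, Myl9 and Cnn1. Each is classed here as a smooth muscle isoform, although Myl9 also serves the myosin of stress fibres. The 2 lines did not overlap for 25 of the 32 genes, with 27.4% of all genes as background. In 20 of these the knockout arrays were the higher ones (12.6% of all genes) and in 5 the lower ones (14.8%). Non-overlap was more common among the 11391 genes above the background range. There it held for 5699 genes, with knockout higher in 2510 and lower in 3189. The count of risen genes was 16 or 17 with any single array left out.

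Genes that rose were found in both the smooth muscle and the non-muscle class. Among the 10 smooth muscle isoforms 6 rose, 1 fell and 3 did not pass, with a median log2 fold change of 0.74. Among the 8 non-muscle isoforms 4 rose and the other 4 did not pass, the median being 0.19. Of the 6 genes of mixed use 5 rose, with a median of 0.45. The 6 genes in the background range of each line were Actg2, Myh11, Des, Synpo2, Tgfb1i1 and Myocd, and Actg2 alone of these was called.

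**Figure D1:**
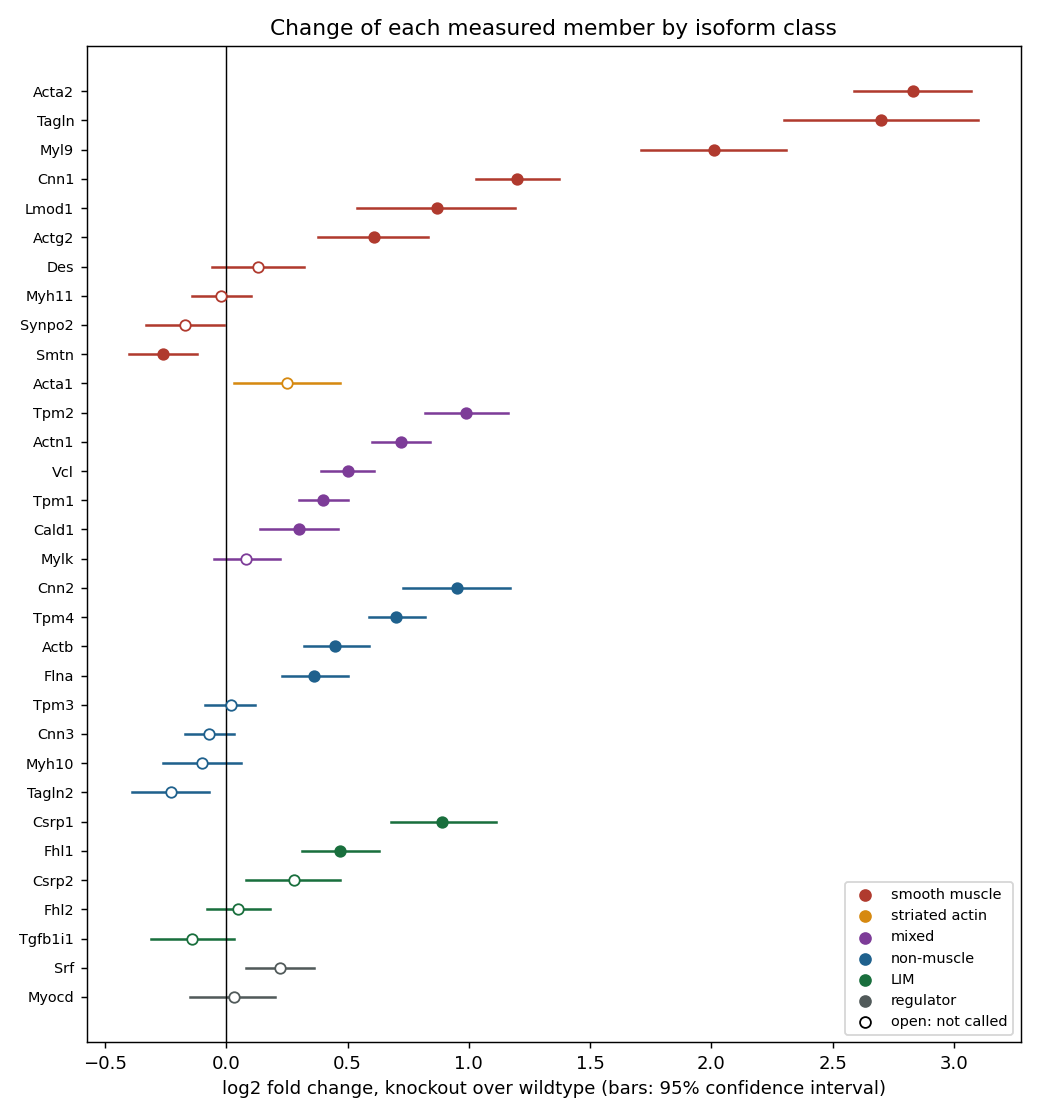
Log2 fold change of each measured gene, knockout over wildtype (x axis), with its 95% confidence interval as a bar, grouped by isoform class and sorted within a class. Filled points are called changed and open points are not; Acta2, Tagln and Myl9 stand at 2.01 or more, and all other genes at 1.20 or less.

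The actins are the monomers of the thin filament. Acta2, the smooth muscle alpha-actin (probe set TC1900001415.mm.1, chromosome 19), was at 12.87, 12.84 and 12.97 in the 3 knockout arrays, against 9.88, 10.08 and 10.25 in the 3 wildtype arrays. Every knockout array lay more than 2 log2 units above every wildtype array. It averaged 12.90 ± 0.07 in knockout and 10.07 ± 0.19 in wildtype (SD, n = 3 each), a 7.11-fold rise (log2 fold change 2.83, SE 0.10, limma adjusted p = 2.38e-05), the highest fold change of the list. Actb, the cytoplasmic beta-actin of all cells, was at 12.93, 12.85 and 12.92 in knockout arrays, against 12.43, 12.39 and 12.52 in wildtype arrays. The lines did not overlap, and the rise was 1.37-fold (log2 fold change 0.45, SE 0.05, limma adjusted p = 0.00322).

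Actg2, the enteric smooth muscle gamma-actin, was at 7.52, 7.43 and 7.75 in knockout arrays, against 7.02, 6.89 and 6.98 in wildtype arrays. It was called higher (log2 fold change 0.61, limma adjusted p = 0.00785), but both means lay within the background range. Acta1, the skeletal muscle alpha-actin, had 8.31, 8.34 and 8.43 in knockout arrays and 8.27, 7.94 and 8.11 in wildtype arrays. The highest wildtype array came close to the lowest knockout array, and the difference of 0.25 did not pass (limma adjusted p = 0.155). The muscle actins are nearly identical in their coding sequence, so probes may be shared between them, and with Acta2 far up in knockout the part of cross-hybridization in the smaller differences of Actg2 and Acta1 was not tested.

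**Figure D2:**
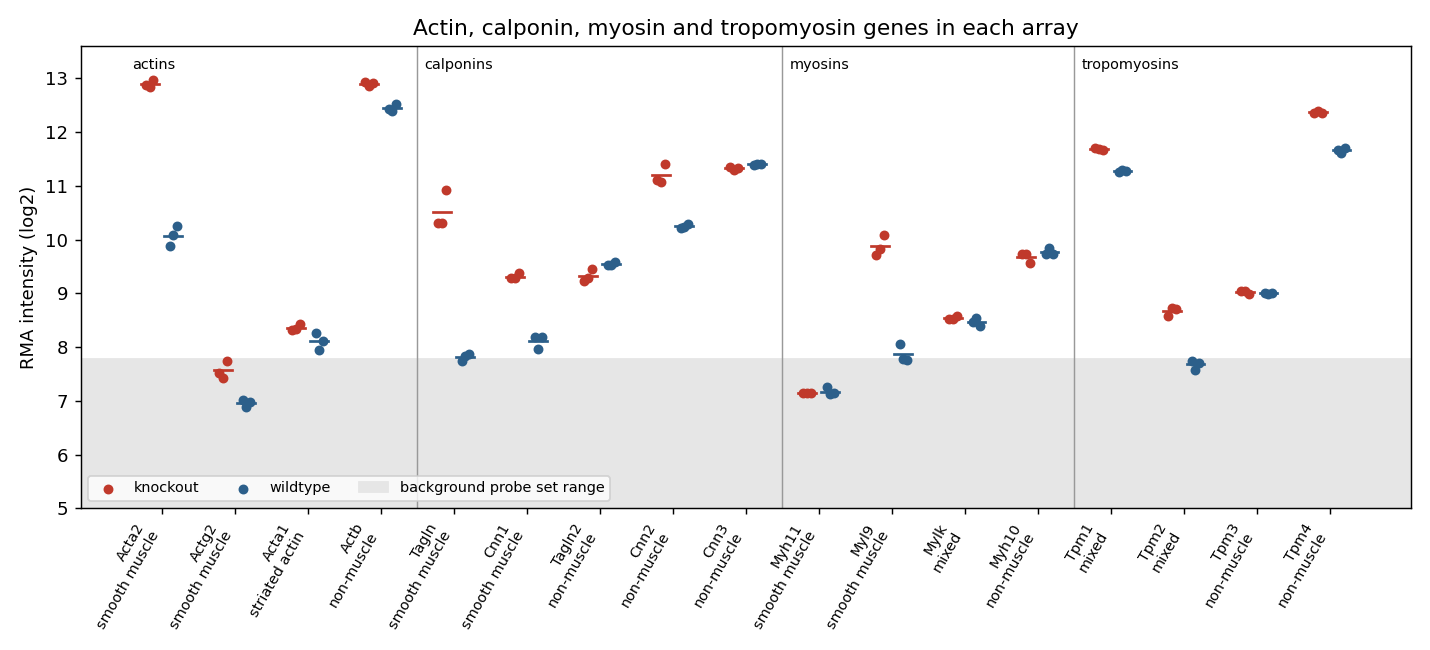
RMA intensity (log2, y axis) of the measured actin, calponin, myosin and tropomyosin genes, with a point per array, a bar at the mean of 3, knockout in red and wildtype in blue. The grey band ends at 7.78, the highest background probe set. Acta2, Tagln, Cnn1 and Myl9 separate widely, while Cnn3, Tpm3, Mylk and Myh11 do not.

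The calponin family comprises small actin-binding proteins that stabilize filaments. Tagln, which encodes SM22-alpha, an early marker of smooth muscle (probe set TC0900002212.mm.1, chromosome 9), was at 10.31, 10.31 and 10.92 in knockout arrays, against 7.74, 7.83 and 7.87 in wildtype arrays. Knockout replicate 3 stood above the other two, and all 3 stood far above wildtype. The rise was 6.51-fold (log2 fold change 2.70, SE 0.17, limma adjusted p = 0.000215), with a log2 fold change of 2.50 when that array was left out. Cnn1, calponin 1, an inhibitor of actomyosin that marks smooth muscle (probe set TC0900000212.mm.1, chromosome 9), was at 9.28, 9.28 and 9.37 in knockout arrays, against 8.18, 7.97 and 8.18 in wildtype arrays. The lines stood well apart, a 2.30-fold rise (log2 fold change 1.20, SE 0.07, limma adjusted p = 0.000194).

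The non-muscle calponins differed among themselves. Cnn2, the calponin of non-muscle and smooth muscle cells, was at 11.11, 11.07 and 11.40 in knockout arrays, against 10.22, 10.23 and 10.28 in wildtype arrays. This was a 1.93-fold rise (log2 fold change 0.95, SE 0.09, limma adjusted p = 0.00136), with replicate 3 again the highest of the knockout arrays. Cnn3, the acidic calponin, was at 11.35, 11.30 and 11.33 in knockout arrays and 11.39, 11.40 and 11.41 in wildtype arrays, all wildtype values being higher by a small margin. The difference of -0.07 had a 95% confidence interval of -0.17 to 0.03 and did not pass (limma adjusted p = 0.386). Tagln2, the non-muscle transgelin, was at 9.22, 9.28 and 9.45 in knockout arrays, against 9.53, 9.53 and 9.59 in wildtype arrays. The lines did not overlap, yet the difference of -0.23 did not pass (limma adjusted p = 0.0883) but passed without knockout replicate 3 (log2 fold change -0.29, limma adjusted p = 0.0286), without genes in the background range (0.0389) and with array weights (0.00192).

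Myosin II is the motor of contraction. Myl9, the regulatory light chain of smooth muscle and stress fibre myosin (probe set TC0200002399.mm.1, chromosome 2), was at 9.71, 9.82 and 10.09 in knockout arrays, against 8.05, 7.78 and 7.76 in wildtype arrays. The lowest knockout array was more than 1 log2 unit above the highest wildtype array, a 4.03-fold rise (log2 fold change 2.01, SE 0.12, limma adjusted p = 0.000218). Myh11, the smooth muscle heavy chain and the most specific marker of differentiated smooth muscle, was at 7.14, 7.15 and 7.15 in knockout arrays and 7.25, 7.12 and 7.15 in wildtype arrays. The lines overlapped within the background range, and the difference was -0.02 (95% confidence interval -0.14 to 0.10, limma adjusted p = 0.891). Myh10, the heavy chain of non-muscle myosin IIB, differed by -0.10 (-0.26 to 0.06, limma adjusted p = 0.498). Mylk, the kinase that activates the light chain in both cell kinds, differed by 0.08 (-0.05 to 0.22, limma adjusted p = 0.499). The light chain thus rose with no call for either measured heavy chain or for the kinase. Of the genes for the non-muscle light chains outside the list, Myl12a differed by 0.04 and Myl12b by 0.02, neither passing (limma adjusted p = 0.713 and 0.888).

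Since many of these genes are known SRF targets, RefSeq promoter windows of GRCm38.p6 (250 bases before to 50 after the start) were searched for the CArG box. That box is CC, then 6 positions of A or T, then GG, and reads the same on both strands as a pattern. Windows were held for 25 of the 32 genes, and Tagln, Actb, Actg2, Myh11, Tgfb1i1, Csrp2 and Myocd had none in the table. The 3 smooth muscle isoforms with the largest fold change that had a window (Acta2, Myl9 and Cnn1) are shown with the non-muscle paralogs of Cnn1, 5′ to 3′ on the gene's strand. Capitals mark a CArG box or a run of 10 letters that differs from it at 1 position. Acta2 is chr19:34255324-34255623 on the minus strand, Myl9 is chr2:156775214-156775513 on the plus strand, Cnn1 is chr9:22099003-22099302 on the plus strand, Cnn2 is chr10:79988350-79988649 on the plus strand and Cnn3 is chr3:121426291-121426590 on the plus strand.
Acta2: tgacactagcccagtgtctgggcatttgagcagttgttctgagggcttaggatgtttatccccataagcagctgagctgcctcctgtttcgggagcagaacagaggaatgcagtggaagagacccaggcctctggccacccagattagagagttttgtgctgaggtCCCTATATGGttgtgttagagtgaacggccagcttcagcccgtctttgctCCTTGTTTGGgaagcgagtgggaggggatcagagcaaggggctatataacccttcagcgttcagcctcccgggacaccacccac
Myl9: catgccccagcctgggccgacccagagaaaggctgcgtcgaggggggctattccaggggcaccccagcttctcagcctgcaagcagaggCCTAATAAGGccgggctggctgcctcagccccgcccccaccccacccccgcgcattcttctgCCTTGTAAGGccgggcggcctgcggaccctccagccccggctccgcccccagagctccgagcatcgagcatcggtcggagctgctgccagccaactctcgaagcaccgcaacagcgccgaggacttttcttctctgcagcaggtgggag
Cnn1: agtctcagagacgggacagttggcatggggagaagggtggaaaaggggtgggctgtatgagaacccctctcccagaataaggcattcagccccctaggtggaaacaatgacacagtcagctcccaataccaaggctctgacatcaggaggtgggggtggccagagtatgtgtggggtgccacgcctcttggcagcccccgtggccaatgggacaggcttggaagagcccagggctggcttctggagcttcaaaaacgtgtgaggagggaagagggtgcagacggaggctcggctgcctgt
Cnn2: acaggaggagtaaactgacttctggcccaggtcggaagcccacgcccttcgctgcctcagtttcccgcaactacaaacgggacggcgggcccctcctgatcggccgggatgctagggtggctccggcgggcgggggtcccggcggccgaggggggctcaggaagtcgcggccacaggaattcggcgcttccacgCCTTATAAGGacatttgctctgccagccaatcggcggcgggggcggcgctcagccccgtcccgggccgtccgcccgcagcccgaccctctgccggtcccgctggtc
Cnn3: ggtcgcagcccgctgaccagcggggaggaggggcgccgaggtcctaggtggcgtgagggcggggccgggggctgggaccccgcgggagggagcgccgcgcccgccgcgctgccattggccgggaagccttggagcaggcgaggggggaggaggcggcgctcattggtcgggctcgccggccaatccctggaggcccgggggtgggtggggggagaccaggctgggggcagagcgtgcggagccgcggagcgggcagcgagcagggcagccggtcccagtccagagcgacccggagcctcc

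The Acta2 window held no exact CArG box but 2 runs that are 1 letter off, beginning at -84 (ccctatatgg) and -34 (ccttgtttgg) relative to the start. Myl9 held an exact box at -161 (cctaataagg) and a run 1 letter off at -99 (ccttgtaagg). Cnn2, the non-muscle calponin that rose, held an exact box at -56 (ccttataagg), whereas the window of the smooth muscle gene Cnn1 held neither form, and nor did that of Cnn3. Only these windows were searched, and a match is a run of letters, not a shown binding site. Over the list, 7 of 25 genes (28.0%) had an exact box in a window, which was 8 of their 30 windows (26.67%), against 1.63% of all 32851 windows. Many of the genes are on the list as known SRF targets, so this share is a property of the choice.

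Risen and uncalled genes held an exact box in similar shares. It was present for 4 of the 14 risen genes that had a window, Myl9, Cnn2, Fhl1 and Vcl. Among the 10 uncalled genes it was present for 3, Acta1, Fhl2 and Srf, and it was absent for Smtn, the gene that fell. A run 1 letter off was present for 7 of the 14 risen genes and 3 of the 10 uncalled genes. Counted by window, it was in 36.67% of the 30 windows of the list, against 19.87% of all windows. The TEAD motif CATTCC, searched on both strands, was present for 6 of the 14 risen genes and 4 of the 10 uncalled genes. By window its share was 36.67% in the list, against 14.66% of all windows. These shares are given as a description, with no test.

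Tropomyosins are coiled coils that lie along the actin filament and set which myosins and severing proteins reach it. Tpm2, whose main product is muscle beta-tropomyosin, was at 8.58, 8.73 and 8.71 in knockout arrays, against 7.75, 7.57 and 7.71 in wildtype arrays. The lines stood apart with a 1.99-fold rise (log2 fold change 0.99, SE 0.07, limma adjusted p = 0.000389), although the wildtype mean lay within the background range. Tpm4, a non-muscle tropomyosin of stress fibres, was at 12.35, 12.39 and 12.35 in knockout arrays, against 11.67, 11.60 and 11.70 in wildtype arrays. This non-muscle gene rose 1.63-fold (log2 fold change 0.70, SE 0.05, limma adjusted p = 0.000291). Tpm1, which gives muscle and stress fibre products by splicing, rose by 0.40 (SE 0.04, limma adjusted p = 0.00173). Tpm3, the other mainly non-muscle gene, differed by 0.02 (95% confidence interval -0.09 to 0.12, limma adjusted p = 0.927). Splice forms of 1 gene cannot be told apart in these gene-level values.

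Of the 8 listed genes grouped here as filament proteins, 5 rose, 1 fell and 2 did not pass. Actn1, the alpha-actinin of stress fibres and focal adhesions, was at 11.65, 11.62 and 11.73 in knockout arrays, against 10.92, 10.95 and 10.99 in wildtype arrays. All 3 knockout values were higher, a 1.65-fold rise (log2 fold change 0.72, SE 0.05, limma adjusted p = 0.00034). Vcl, vinculin, which couples adhesions to actin, rose by 0.50 (SE 0.05, limma adjusted p = 0.00107). Flna, the X-linked filamin A that crosslinks cortical actin, rose by 0.36 (SE 0.05, limma adjusted p = 0.00753). Cald1, caldesmon, an actin-binding brake on myosin with smooth and non-muscle splice forms, was at 12.05, 12.12 and 11.91 in knockout arrays, against 11.66, 11.77 and 11.75 in wildtype arrays. Its knockout values were the higher ones throughout, and the rise of 0.30 passed (limma adjusted p = 0.0367). That call was lost without knockout replicate 1 (limma adjusted p = 0.131) or 2 (0.115), or wildtype replicate 1 (0.098), 2 (0.0754) or 3 (0.118), and after a second quantile normalization (0.128), with log2 fold changes of 0.25 to 0.32.

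The muscle-selective filament proteins went different ways. Lmod1, leiomodin, which nucleates actin in smooth muscle, was at 8.26, 8.24 and 8.0 in knockout arrays, against 7.52, 7.04 and 7.34 in wildtype arrays. The lines did not overlap, and the log2 fold change was 0.87 (SE 0.13, limma adjusted p = 0.00859) with the wildtype mean within the background range. Smtn, smoothelin, a marker of contractile smooth muscle, was at 10.59, 10.55 and 10.72 in knockout arrays, against 10.87, 10.91 and 10.85 in wildtype arrays. It was the 1 gene of the list that fell, by 0.26 on the log2 scale (SE 0.06, limma adjusted p = 0.0371). The call was lost without knockout replicate 1 (limma adjusted p = 0.136) or 2 (0.125), without wildtype replicate 1 (0.0802), 2 (0.0933) or 3 (0.114), and with the replicate block (0.0725). Des, desmin, the muscle intermediate filament, had 6.86, 6.86 and 6.88 in knockout arrays and 6.89, 6.60 and 6.72 in wildtype arrays. These values overlapped within the background range, and the difference of 0.13 missed the threshold (limma adjusted p = 0.435). Synpo2, synaptopodin 2 of the muscle Z-line, was at 6.16 in every knockout array and at 6.46, 6.23 and 6.32 in wildtype arrays. It lay within the background range in both lines and differed by -0.17 (limma adjusted p = 0.18).

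LIM-domain proteins shuttle between filaments, adhesions and the nucleus. Csrp1, a cysteine-rich protein of smooth muscle that bundles actin, was at 10.20, 10.18 and 10.42 in knockout arrays, against 9.42, 9.25 and 9.46 in wildtype arrays. The lines stood apart, a 1.86-fold rise (log2 fold change 0.89, SE 0.09, limma adjusted p = 0.00154). Fhl1, an X-linked LIM protein of muscle, rose by 0.47 (SE 0.07, limma adjusted p = 0.00642). Csrp2, the family member of vascular smooth muscle, was at 8.66, 8.77 and 8.87 in knockout arrays, against 8.37, 8.59 and 8.51 in wildtype arrays. The difference of 0.28 did not pass (limma adjusted p = 0.0895), although the lines did not overlap. It passed with the replicate block (limma adjusted p = 0.0496), after a second quantile normalization (0.0186), without genes in the background range (0.0392) and with array weights (0.00679). Fhl2, a LIM cofactor that is itself an SRF target, differed by 0.05 (95% confidence interval -0.08 to 0.18, limma adjusted p = 0.714). Tgfb1i1, which encodes the adhesion protein Hic-5, differed by -0.14 within the background range (limma adjusted p = 0.317).

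Beside the X-linked Flna and Fhl1, the lines differed in transcripts that depend on the sex chromosomes. The noncoding RNA Xist was at 6.01 ± 0.05 in knockout and 12.19 ± 0.04 in wildtype (SD, n = 3 each), and the Y-linked Uty was at 9.90 ± 0.07 in knockout and 5.21 ± 0.14 in wildtype. Of 449 X-linked genes above the background range, 39 were called higher and 102 lower, with a median log2 fold change of -0.07. Of all 11391 genes above that range 1146 were called higher and 1534 lower, with a median of -0.01. The median over all 1865 measured X-linked genes was 0.008. With chromosome medians taken off, Flna and Fhl1 were still called, and the part of the chromosome in their values was not tested.

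Neither regulator of the list passed. Srf, the transcription factor itself, was at 8.74, 8.74 and 8.89 in knockout arrays, against 8.61, 8.55 and 8.55 in wildtype arrays. The lines did not overlap, and the difference of 0.22 (SE 0.06) missed the threshold (limma adjusted p = 0.0616). It passed when the arrays were quantile-normalized again (limma adjusted p = 0.0368) or when genes within the background range were left out (0.0265), and with array weights (0.00256). Myocd, the myocardin gene, was at 6.33, 6.31 and 6.31 in knockout arrays and 6.41, 6.15 and 6.31 in wildtype arrays. These values overlapped within the background range, and the difference was 0.03 (95% confidence interval -0.15 to 0.20, limma adjusted p = 0.918). Of the cofactors outside the list, Mrtfa, which encodes the actin-sensing MRTF-A, was at 9.17, 9.20 and 9.48 in knockout arrays, against 8.59, 8.55 and 8.50 in wildtype arrays. It rose by 0.74 (SE 0.09, limma adjusted p = 0.00322), whereas its paralog Mrtfb differed by -0.16 (limma adjusted p = 0.26).

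The ternary complex factors split. Elk3, which represses SRF targets until it is phosphorylated, rose by 0.46 (SE 0.05, limma adjusted p = 0.00143). Elk1, also X-linked, fell by 0.24 (limma adjusted p = 0.0479), a call lost when any single array was left out (limma adjusted p of 0.156 and 0.152 without knockout replicates 1 and 2, 0.0851 without knockout replicate 3, 0.107 and 0.0844 without wildtype replicates 1 and 2, and 0.0546 without wildtype replicate 3). Elk4 differed by -0.10 (limma adjusted p = 0.408). Klf4, a factor that opposes the smooth muscle program, was at 9.05, 9.17 and 9.19 in knockout arrays, against 8.56, 8.21 and 8.28 in wildtype arrays, and it rose by 0.79 (SE 0.10, limma adjusted p = 0.00382). Klf5, a factor of the proliferative smooth muscle state, rose by 0.70 (SE 0.07, limma adjusted p = 0.00168). In the list of 12 regulators 5 rose, 1 fell and 6 did not pass, against 5.05% of all genes called higher and 6.90% lower. The remaining riser was the cGMP kinase gene Prkg1 (0.36, within the background range, chosen after its value was seen). The Prkg1 call was lost without knockout replicate 1 (limma adjusted p = 0.0834), 2 (0.0945) or 3 (0.0576) or wildtype replicate 3 (0.0846).

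To compare isoforms directly, the log2 ratio of a muscle isoform, or of the mixed-use genes Tpm1 and Tpm2, to a non-muscle paralog was taken within each array, which shows unequal change and not that either gene held still. The measured genes gave 7 such pairs. The ratio of Tagln to Tagln2 differed most of the 7. Relative to its wildtype mean it stood at 2.83, 2.77 and 3.20 in the 3 knockout arrays, against -0.05, 0.03 and 0.02 in the 3 wildtype arrays. That is a difference of 2.93 (SE 0.14, 95% confidence interval 2.55 to 3.32). Acta2 over Actb differed by 2.38 (SE 0.09, 2.12 to 2.63), so the smooth muscle actin outpaced a cytoplasmic actin that was itself higher. Cnn1 over Cnn3 differed by 1.27 (SE 0.08, 1.06 to 1.49). Each of these differences was many times its error, and the arrays of the lines did not overlap.

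The other pairs differed far less. Cnn1 over Cnn2 differed by 0.25 (SE 0.10), and its 95% confidence interval of -0.01 to 0.52 includes 0, both calponins being higher in knockout. Tpm2 over Tpm4 differed by 0.29 (SE 0.05, 0.14 to 0.44) and Tpm1 over Tpm3 by 0.39 (SE 0.02, 0.34 to 0.44), with no overlap between lines. Myh11 over Myh10 differed by 0.08 (SE 0.09, -0.18 to 0.33), and its arrays overlapped. By the exact two-sided permutation test over arrays, the p was 0.10 for 6 pairs and 0.50 for Myh11 over Myh10 (0.12 and 0.50 adjusted over the 7 pairs). With 3 arrays against 3, 0.10 is the smallest p this test can give, so no pair could pass 0.05.

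**Figure D3:**
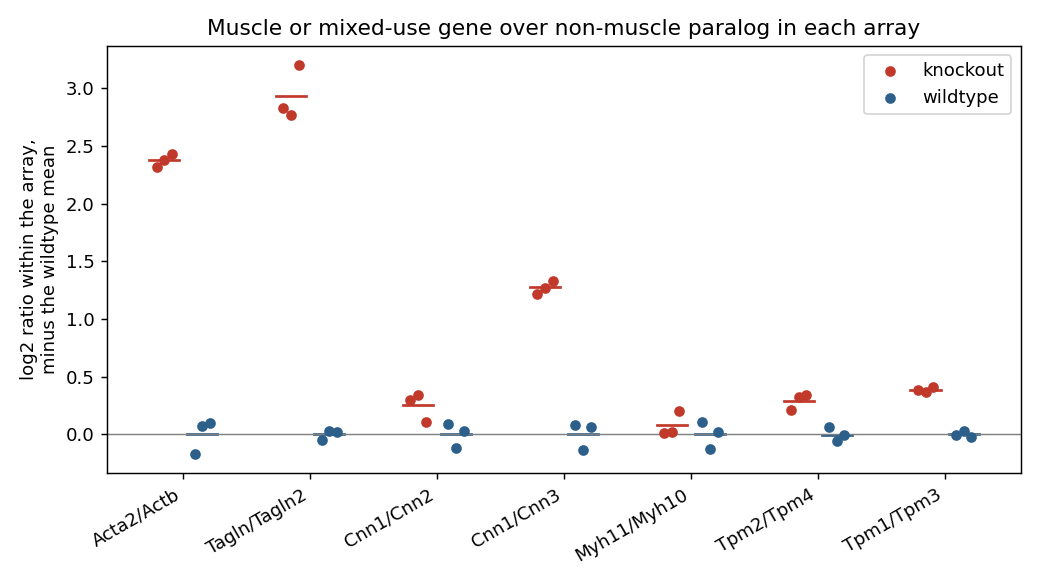
Log2 ratio of a muscle isoform (for Tpm1 and Tpm2, a gene of mixed use) to a non-muscle paralog within each array, minus the wildtype mean of that ratio (y axis), for 7 pairs, with a point per array and a bar at the mean of 3. Knockout arrays (red) lie 2.32 to 3.20 above the mean of the wildtype arrays (blue) for Tagln/Tagln2 and Acta2/Actb and at most 0.41 above it for Cnn1/Cnn2, Myh11/Myh10, Tpm2/Tpm4 and Tpm1/Tpm3.

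Genes of the same pathway outside the list were read from the same fit. Their counts stand against 5.05% of all genes called higher and 6.90% lower, or 10.1% and 13.5% of genes above the background range. Of 18 further measured SRF and ternary complex targets, 10 rose, 1 fell and 7 did not pass, with a median log2 fold change of 0.28. The number that rose was 7 to 9 with any single array left out, and 6 at a threshold of 0.01. Pdlim5, an adaptor of the actinin-rich Z-line and stress fibres, was at 10.62, 10.63 and 10.42 in knockout arrays, against 9.05, 9.24 and 9.11 in wildtype arrays. It rose by 1.42 (SE 0.08, limma adjusted p = 0.000152), and Lima1, which bundles actin and slows its turnover, rose by 1.37 (SE 0.06, limma adjusted p = 7.83e-05). The secreted matricellular gene Ccn2 rose by 1.31 (SE 0.08, limma adjusted p = 0.000173). Egr1, an immediate early gene, accounted for the fall (-0.27, limma adjusted p = 0.0113, chosen after its value was seen), and its call was lost without knockout replicate 1 (limma adjusted p = 0.0563) or 2 (0.0508) or wildtype replicate 3 (0.0575). Among other immediate early genes, Fos rose by 0.64 (limma adjusted p = 0.000755) and Ier2 by 0.31 (limma adjusted p = 0.0265), while Egr2 and Fosb did not pass. They were also named after their values were seen. The Ier2 call was lost without any single knockout replicate and without wildtype replicate 2.

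Of 18 other smooth muscle genes measured, 4 rose, 1 fell and 13 did not pass, with a median of 0.01 and with 11 within the background range in both lines. Nexn, nexilin, a filament-binding protein of muscle and adhesions, was at 7.52, 7.78 and 7.44 in knockout arrays, against 6.05, 6.0 and 5.78 in wildtype arrays. The lines were well apart (log2 fold change 1.64, SE 0.11, limma adjusted p = 0.000328), although both means lay within the background range. Hspb1, a small heat shock protein that protects actin, rose by 0.80 (SE 0.07, limma adjusted p = 0.000872), and the muscle filamin gene Flnc fell by 0.65 (SE 0.07, limma adjusted p = 0.0019). Jph2, of the junctional membranes of muscle, and Ldb3, of the Z-line, also rose (0.30 and 0.44, chosen after their values were seen). Neither call held without knockout replicate 1 (limma adjusted p = 0.0817 for Jph2 and 0.0757 for Ldb3), 2 (0.144 and 0.0609) or 3 (0.131 and 0.066) or wildtype replicate 3 (0.164 and 0.0695), and that of Jph2 was also lost without wildtype replicate 2 (0.121) and with the replicate block (0.0781). The markers of contractile smooth muscle or pericytes Kcnmb1, Pln, Casq2, Ppp1r14a and Rgs5 differed by -0.09 to 0.19 and did not pass. Each lay within the background range in both lines, where a change could be missed, and they were named after their values were seen.

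Of 16 measured genes that carry signals between actin and SRF, 4 rose, 1 fell and 11 did not pass, with a median of 0.04. Tmsb4x, the X-linked thymosin beta-4 gene, whose product sequesters actin monomers, was at 9.56, 9.56 and 9.54 in knockout arrays, against 8.76, 8.79 and 8.86 in wildtype arrays. It rose by 0.75 (SE 0.05, limma adjusted p = 0.000208). The small GTPase gene Rhob rose by 0.66 (SE 0.09, limma adjusted p = 0.00602) and the X-linked formin gene Diaph2 fell by 0.65 (SE 0.08, limma adjusted p = 0.00322). The other genes that rose were Arhgap1 (0.57) and Rhoa (0.34), both chosen after their values were seen, while Rock1, Limk1, Limk2, Diaph1 and Diaph3 did not pass. Of 4 non-muscle paralogs outside the list, Actn4, the alpha-actinin of podocyte foot processes, rose by 0.61 (SE 0.04, limma adjusted p = 0.00035) and the other 3 did not pass.

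**Figure D4:**
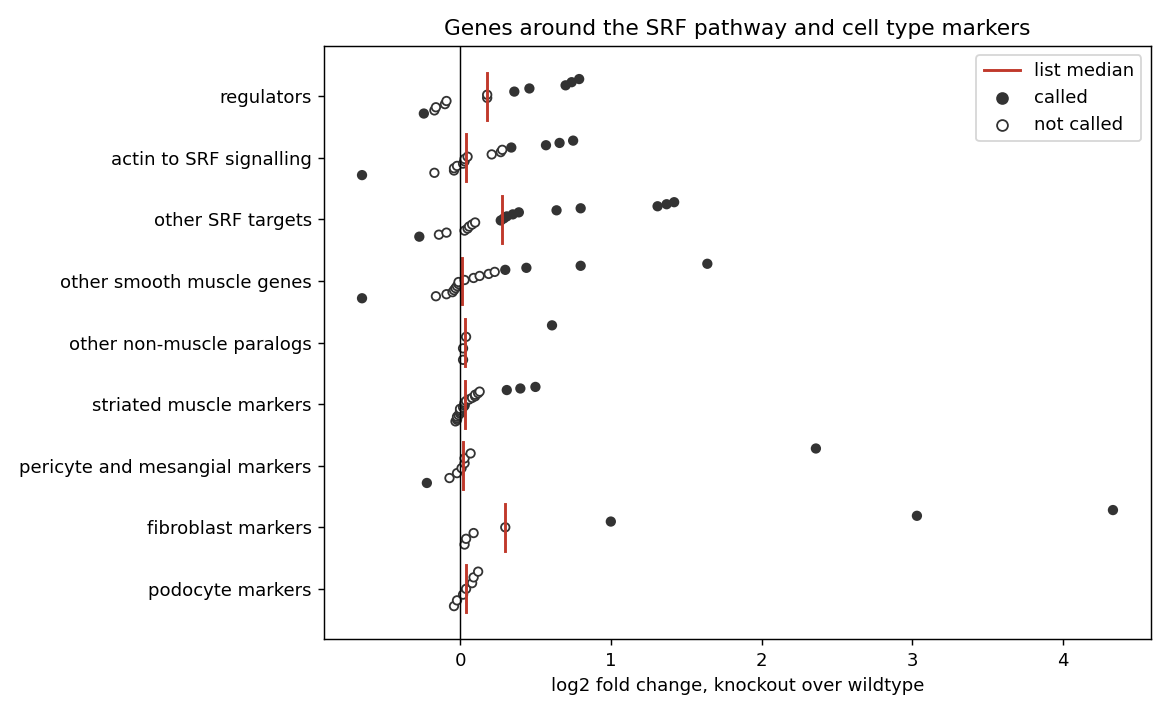
Log2 fold change, knockout over wildtype (x axis), of the measured genes of 9 lists around the SRF pathway and of cell type markers, with a point per gene, filled where called, and a red bar at the list median. The other SRF targets have a median of 0.28, while the other smooth muscle genes, the striated muscle markers and the podocyte markers centre on 0.01 to 0.04.

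Markers of other contractile or stromal cells were read beside these changes. The counts here, and for the cell types that follow, stand against 5.05% of all genes called higher and 6.90% lower. Above the background range these shares were 10.1% and 13.5%. Of 23 striated muscle markers 3 rose and the other 20 did not pass, and 21 were within the background range in knockout and wildtype alike. Those that rose were the cardiac troponin gene Tnnt2 (0.50, limma adjusted p = 0.0137) and the natriuretic peptide genes Nppb (0.40, 0.0134) and Nppa (0.31, 0.0114), all 3 losing the call without knockout replicate 2 (limma adjusted p = 0.0614, 0.0616 and 0.0534). Without wildtype replicate 3 the calls of Tnnt2 and Nppa were lost as well (0.0542 and 0.0518), and that of Nppb was lost without knockout replicate 1 (0.0661) or wildtype replicate 2 (0.0509). Of 8 measured pericyte and mesangial markers 1 rose, 1 fell and 6 did not pass, with 7 in the background range of each line, among them Rgs5, Cspg4, Abcc9, Kcnj8, Notch3 and Itga8. The one that rose was the growth factor receptor gene Pdgfrb, at 9.91, 9.80 and 10.06 in knockout arrays and 7.65, 7.45 and 7.58 in wildtype arrays (log2 fold change 2.36, SE 0.08, limma adjusted p = 2.66e-05). Mcam fell by 0.22 (limma adjusted p = 0.0174, and 0.0532 to 0.0879 without any knockout replicate or without wildtype replicate 3). The log2 of the summed intensity of that list was 10.76 to 10.88 in knockout arrays and 9.93 to 10.11 in wildtype arrays. A sum gives most weight to the brightest gene, in knockout Pdgfrb, and the median log2 fold change of the list was 0.02. The sum therefore does not show a rise of the list as a whole.

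Of 7 measured fibroblast markers 3 rose and 4 did not pass, with a median of 0.30. Dcn, a collagen-binding proteoglycan, rose by 4.33 (SE 0.07), Col1a1, a chain of fibrillar collagen, by 3.03 (SE 0.08) and S100a4, a calcium-binding protein of motile cells, by 1.00 (SE 0.10), with limma adjusted p from 1.63e-06 to 0.00188. Lum, Thy1, Col1a2 and Fap lay in the background range of each line. The log2 of that list's summed intensity was 12.41 to 12.56 in knockout arrays and 10.06 to 10.21 in wildtype arrays. This sum too is weighted to the brightest genes, in knockout Col1a1 and Dcn, and does not speak for the list as a whole. Of 7 endothelial markers Ehd3 fell (-0.67) and 6 lay within the background range. Of 8 tubule markers 4 fell and none rose. Those that fell were Aqp1 (-3.50), Cdh16 (-1.50), Cubn (-0.56) and Lrp2 (-0.36, chosen after its value was seen). Aqp1, Cdh16 and Lrp2 had means of 12.92, 11.60 and 11.76 in wildtype and 9.42, 10.10 and 11.39 in knockout, above the background range. By contrast, 4 of the 8 tubule markers, Cubn among them, lay within that range in each line. Of 4 leukocyte markers Cd68 was called higher (0.57, limma adjusted p = 0.0471, not passing without any single array other than knockout replicate 3) and Ptprc, Adgre1 and Cd3e were within the background range. The part of cell identity in the contractile gene changes was not tested.

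Within a line, the arrays differed little in these genes. The median SD between replicates was 0.12 log2 units for the smooth muscle isoforms, 0.06 for the non-muscle isoforms and 0.09 over all genes. Of the 17 genes that rose, 8 were highest in knockout replicate 3 among the knockout arrays, among them Acta2, Tagln, Cnn1, Cnn2, Myl9, Actg2, Csrp1 and Actn1, and 6 were highest in replicate 1 and 3 in replicate 2. No call among the 17 rested on that array, since leaving it out kept the call of each, the highest limma adjusted p being 0.0201 among the smooth muscle isoforms (Lmod1) and 0.0289 among all 17 (Flna).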

How the data were processed

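RNA of 6 samples was measured on Affymetrix mouse gene arrays, 3 of the NCK1/2 knockout line and 3 of the wildtype line. The deposited values are log2 intensities made by the authors with RMA in affy 1.44.0, per the submitters' processing notes; the probe definition file is not given in the sources used here. The table holds 72688 probe sets, of which 31258 carry 1 gene symbol and 1492 several, and the rest none. The probe set with the highest mean over the 6 arrays was kept for each of 441 genes that had several, leaving 30702 genes. Symbols were updated with the RefSeq annotation of GRCm38.p6.

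All genes were fitted with limma 3.58.1 in R 4.3.3 (lmFit and eBayes, knockout minus wildtype, no filter, no covariate), with Benjamini-Hochberg adjustment over all of them and a threshold of 0.05. Isoform ratios were tested with an exact permutation test. The fitting script was tested on simulated data. There are no detection calls, so the highest of 23 background probe sets (7.78) marks the background range. Precision is limited by having 3 arrays per line. The members and lists were chosen with earlier results of these data known. The naming rule took every member, Nck1, Nck2, the MRTF and Elk genes, and from each other list up to 3 called genes with the largest change; uncalled genes of those lists, Xist and Uty were named after their values were seen. Alternatives were leaving out each array, a replicate block, array weights, a trended robust variance, a second quantile normalization, chromosome medians taken off, a filter on dim genes, genes with identical values left out, the dimmest probe set per gene and a threshold of 0.01. Sequences are RefSeq promoter windows, searched in Python 3.11.15, and figures were drawn with matplotlib 3.10.9. No protein sequence was used here.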

Additional observations from a re-analysis of the deposited data

How the results depend on the processing

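The number of listed genes that rose was 17, and 16 to 17 with any array left out, 18 with the replicate block and after a second quantile normalization, and 22 with array weights. The number that fell was 1, and 0 to 2 with an array left out, 0 with the replicate block, 5 with array weights, 2 after a second quantile normalization, 2 without genes within the background range, and 0 at a threshold of 0.01. Among all genes, 3669 were called, 2079 to 3388 with an array left out, 10170 with array weights, and 1948 at a threshold of 0.01. Array weights gave wildtype replicate 3 a weight of 54.75, so they rest largely on 1 array. Signs reversed for Myh11 (0.01 without wildtype replicate 1, range -0.05 to 0.01 over arrays left out) and Myocd (-0.04 without wildtype replicate 2, range -0.04 to 0.09), both uncalled and within the background range. The replicate numbers were not taken as pairing the samples, since deviations of same-numbered arrays correlated at 0.35, 0.28 and 0.04, and the replicate block called 3765 genes. Of 440 results for the listed genes under the alternatives, 409 kept their direction and side of the threshold. Of the rest, 12 lost a call (Smtn and Cald1), 17 gained one (among them Csrp2, Srf, Tagln2 and Synpo2) and 2 reversed. The replicate block, trended robust variance, filter on dim genes, removal of identical values and dimmest probe set changed no listed fold change. Under these settings only the adjusted p could move and no sign could reverse, so the 409 overstate how far directions were checked. Each genotype is 1 line, low signals are compressed towards background, and groups of 3 are too small for a check of single outlying arrays. The cause of these shifts was not tested.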
